A study of Rattus norvegicus with 30 samples.

Results

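Described here are 6 genes for growth factors and neurotrophin receptors, Bdnf, Igf1, Vegfa, Tgfb1, Ntrk2 and Ngfr, in the cervical spinal cord of rats with a thoracic spinal cord injury (SCI). They were chosen as candidate cues for the sprouting of corticospinal fibres into this region, by their rat Ensembl identifiers, and are 6 of the 32545 genes listed in each file. The identifiers are ENSRNOG00000047466 (Bdnf), ENSRNOG00000004517 (Igf1), ENSRNOG00000019598 (Vegfa), ENSRNOG00000020652 (Tgfb1), ENSRNOG00000018839 (Ntrk2) and ENSRNOG00000005392 (Ngfr). Their names came with that choice. The deposited files hold identifiers only, and the reference table used here carries none of them. The tissue was laminae IV to VII of the cord, left and right, from a slice at vertebral level C3. It lies above the lesion and is where hindlimb corticospinal fibres are said by the title to sprout.

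The rats were adult female Long Evans animals, over 10 weeks old, with 5 rats in each of 6 groups and 1 library per rat. Injured rats were taken 1, 3, 6 and 12 weeks after a thoracic SCI (SCI 1 week, SCI 3 weeks, SCI 6 weeks and SCI 12 weeks). Sham-operated rats were taken at 12 weeks and at 1 week (sham 12 weeks and sham 1 week). Per the design text, animals whose lesion was of inadequate size had been left out, and the sequenced rats were picked by the quality and amount of their RNA. The labels of sham 1 week replicate 1 conflict, with a control in its title and an injury in its surgery field. It was kept as sham, and every comparison was repeated without it and with it as injured.

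Growth factors of this kind are secreted proteins that act on receptors at the cell surface. BDNF binds TrkB, the receptor tyrosine kinase encoded by Ntrk2, which supports the survival, growth and synaptic plasticity of neurons. The neurotrophin receptor p75, encoded by Ngfr, binds all neurotrophins and their precursor forms, and it is carried by Schwann cells and by some neurons, in which its level can rise after axon injury. IGF-1, VEGF-A and TGF-beta 1 act on neurons and glia as well as on vessels and immune cells.

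Library totals ran from 6459555 to 37410793 counts, and the group mean was lowest in SCI 6 weeks and highest in sham 1 week. Levels are in CPM, which relate a gene's counts to its library total, after TMM normalization for composition, whose factors stayed between 0.972 and 1.03. All 6 genes passed the filter on low counts. The tissue was not checked against cell type markers, because the identifiers could not be paired with names.

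None of the 6 genes passed the threshold, an adjusted p under 0.05, in any comparison. In bulk tissue, fewer cells of a type and less RNA per cell cannot be told apart. Vegfa and Ntrk2 were the most even, with a ratio of the highest to the lowest rat of 1.27 and 1.37, against 2.12 for Bdnf, and for both the interval of every injury comparison excluded a 1.5-fold difference. Igf1 and Tgfb1 were measured with fewer counts, and their intervals were wider. Ngfr varied most with the group: its mean was lowest in sham 1 week, at 9.12 CPM ± 0.840 (SD, n = 5), and highest in SCI 6 weeks, at 14.0 CPM ± 4.00.

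**Figure D1:**
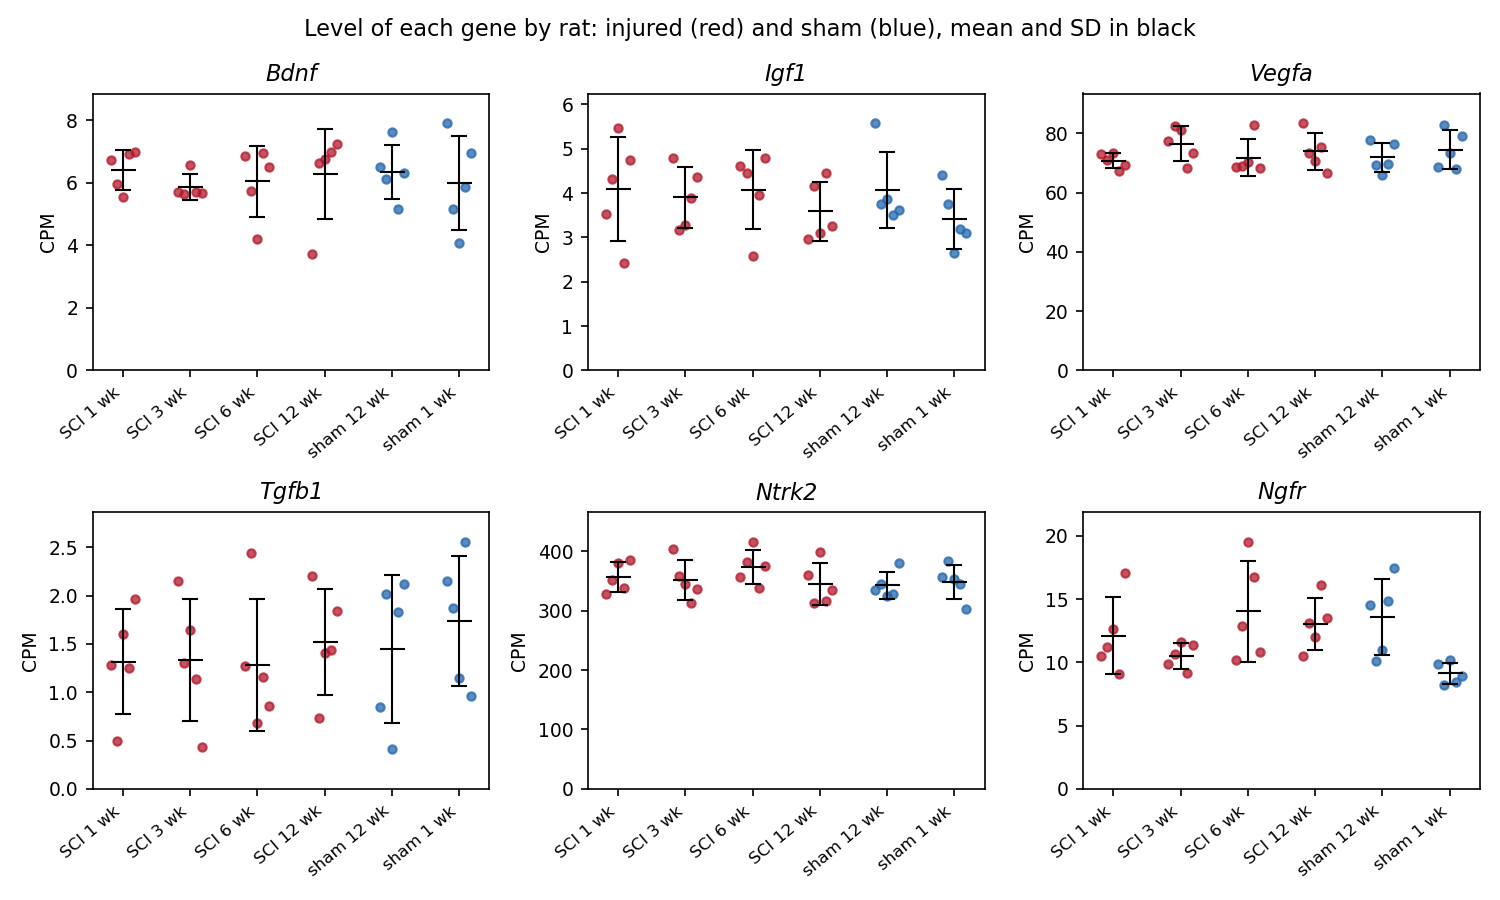
CPM of each gene in each of 30 rats (y axis, from 0) by group (x axis), with injured rats in red, sham rats in blue, and the mean and SD of 5 rats in black. The groups overlap in every gene but Ngfr, which is low and tight in sham 1 week, between 8.24 and 10.2 CPM. All 5 rats of SCI 6 weeks and of SCI 12 weeks lie above that range.

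Bdnf encodes brain-derived neurotrophic factor, the main ligand of TrkB. The gene is read from several alternative starts, and a count per gene adds them all up. RefSeq (build GRCr8) gave 10 windows of 300 bases for 4 of the 6 genes, each from 250 bases before to 50 after a start: 6 for Bdnf, 2 for Vegfa and 1 each for Igf1 and Tgfb1. Printed below, 5′ to 3′ on the plus strand, are 2 of the Bdnf windows and 1 of Vegfa, because these genes have more than 1 start in the table and the deposited counts do not say which start was used. They were picked among the windows that hold a searched motif. Capitals mark TGACG, the core of the cAMP response element, ACGTG, a core shared by E-boxes and the hypoxia response element, and GGGCGG, a GC box, each searched on both strands.
Bdnf, window at chr3:116620585-116620884: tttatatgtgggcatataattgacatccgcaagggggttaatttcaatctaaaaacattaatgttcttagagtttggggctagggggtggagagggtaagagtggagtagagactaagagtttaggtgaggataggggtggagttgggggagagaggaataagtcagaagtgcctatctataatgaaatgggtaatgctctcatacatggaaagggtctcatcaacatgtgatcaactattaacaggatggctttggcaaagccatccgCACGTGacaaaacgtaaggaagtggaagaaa
Bdnf, window at chr3:116637608-116637907: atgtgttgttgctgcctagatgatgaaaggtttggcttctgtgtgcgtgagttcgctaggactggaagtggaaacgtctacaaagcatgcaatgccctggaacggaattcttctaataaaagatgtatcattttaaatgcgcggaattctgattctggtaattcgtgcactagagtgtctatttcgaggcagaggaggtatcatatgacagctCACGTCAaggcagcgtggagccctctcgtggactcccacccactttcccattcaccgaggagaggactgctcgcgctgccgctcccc
Vegfa, window at chr9:22452604-22452903: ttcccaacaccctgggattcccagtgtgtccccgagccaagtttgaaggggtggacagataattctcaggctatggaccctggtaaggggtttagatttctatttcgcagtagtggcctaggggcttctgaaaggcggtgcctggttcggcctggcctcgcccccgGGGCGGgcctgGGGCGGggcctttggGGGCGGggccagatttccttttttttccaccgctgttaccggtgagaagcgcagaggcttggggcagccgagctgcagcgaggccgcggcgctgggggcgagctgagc

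The Bdnf windows differed from each other in these letters. The window at chr3:116637608-116637907 held 1 TGACG and 1 ACGTG, both on the minus strand and overlapping in the run CACGTCA, and no other Bdnf window held TGACG. The window at chr3:116620585-116620884 held ACGTG on both strands, overlapping in CACGTG. Of the Bdnf windows not printed, that at chr3:116619383-116619682 held 2 ACGTG and that at chr3:116621721-116622020 held 2 GGGCGG. Those at chr3:116639552-116639851 and chr3:116639608-116639907 held 0 of the 3 motifs. The printed Vegfa window held 3 GGGCGG and 63.3% G or C, and the other, at chr9:22460028-22460327, held 0 of the 3 motifs and 57.3% G or C. Of 33469 windows of this length in the table, 21.2% held TGACG, 19.3% ACGTG and 33.1% GGGCGG, and the median G or C content was 51.7%. A match of letters shows no binding, and the counts give no level for single starts.

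Bdnf was counted 40 to 231 times per library. At 1 week its level was 6.72, 5.96, 5.53, 6.92 and 6.96 CPM in SCI 1 week, against 7.90, 5.15, 4.08, 5.86 and 6.95 CPM in sham 1 week. The injured rats all lay inside the range of the sham rats. The log2 fold change was 0.098 with a standard error of 0.165 (edgeR's quasi-likelihood fit, adjusted p = 0.841 by Benjamini-Hochberg), and its 95% interval ran from 0.848-fold to 1.35-fold. At 12 weeks the level was 3.73, 6.62, 6.75, 6.98 and 7.24 CPM in SCI 12 weeks, against 6.51, 6.11, 7.60, 5.17 and 6.30 CPM in sham 12 weeks. Replicate 1 of SCI 12 weeks was the lowest of all 30 rats, and the other injured rats overlapped the sham rats. For all 5 rats of each group the log2 fold change was -0.0053 ± 0.168 (standard error, edgeR adjusted p = 0.997), and 0.13 without that rat (edgeR adjusted p = 0.921). In between, SCI 3 weeks had 5.65 to 6.58 CPM and SCI 6 weeks 4.20 to 6.93 CPM. The group means ran from 5.86 in SCI 3 weeks to 6.42 in SCI 1 week, a ratio of 1.10, and each neighbour in this order differed by less than the larger SD of the pair.

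Igf1 encodes insulin-like growth factor 1, which acts on a receptor tyrosine kinase of its own and has been studied as a survival and growth factor for corticospinal neurons. It had 29 to 106 counts per library. In SCI 1 week the rats had 3.52, 4.32, 5.47, 2.43 and 4.75 CPM, against 4.40, 3.74, 2.66, 3.18 and 3.11 CPM in sham 1 week. The lowest of these 10 rats and the 2 highest were injured, so the spread was wider after injury than the gap between the means of 4.10 ± 1.17 and 3.42 ± 0.671 CPM (SD, n = 5 each). This gave a log2 fold change of 0.27 (standard error 0.200, edgeR adjusted p = 0.578). Leaving out 1 rat moved it to between 0.14 (without SCI 1 week replicate 3) and 0.41 (without SCI 1 week replicate 4). At 12 weeks the sign was the other one: SCI 12 weeks had 2.96, 4.17, 3.10, 4.45 and 3.25 CPM, against 5.58, 3.76, 3.87, 3.50 and 3.61 CPM in sham 12 weeks. There 3 injured rats lay below every sham rat and none above, with a log2 fold change of -0.19 ± 0.205 (standard error, edgeR adjusted p = 0.942). Without sham 12 weeks replicate 1, which had the highest Igf1 level of the series, it was -0.057 (edgeR adjusted p = 0.993). The injury effect at 12 weeks minus that at 1 week was -0.46 ± 0.287 on the log2 scale and did not pass (edgeR adjusted p = 0.695). SCI 3 weeks had 3.17 to 4.80 CPM and SCI 6 weeks 2.57 to 4.79 CPM, both overlapping the sham rats. Over the 6 groups the means ran from 3.42 in sham 1 week to 4.10 in SCI 1 week, with each neighbour within the larger SD.

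Vegfa encodes vascular endothelial growth factor A, which drives the growth and permeability of vessels and is induced by low oxygen. It was among the most even of the 6 genes, with a coefficient of variation of 7.45% over 30 rats. At 1 week the level was 72.9, 71.0, 73.2, 67.1 and 69.2 CPM in SCI 1 week, against 68.6, 83.0, 73.4, 68.0 and 79.2 CPM in sham 1 week. The injured rats formed the tightest Vegfa group of the series, with an SD of 2.55 CPM, and 1 of them lay below the sham range. The fold change was 0.951, with a 95% interval from 0.862 to 1.05 (edgeR adjusted p = 0.686). At 12 weeks SCI 12 weeks had 83.4, 73.3, 70.7, 75.4 and 66.6 CPM, against 77.6, 69.4, 65.9, 69.8 and 76.5 CPM in sham 12 weeks. The ranges overlapped, with 1 injured rat, at 83.4 CPM, above every sham rat and 0 below. The fold change was 1.03 with an interval from 0.931 to 1.13 (edgeR adjusted p = 0.968). The highest mean, 76.5 CPM ± 5.85 (SD, n = 5), was that of SCI 3 weeks, and the lowest, 70.7 ± 2.55, that of SCI 1 week. SCI 6 weeks averaged 71.8 CPM ± 6.23, and each neighbour in the order of the 6 means differed by less than the larger SD.

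Tgfb1 encodes transforming growth factor beta 1, a cytokine released by microglia, macrophages and platelets that promotes scar formation and limits inflammation. It was the least abundant in counts, with 5 to 48 per library and a median of 20.5, so counting alone gives a coefficient of variation of 25.9%, against 42.3% observed. The rats of SCI 1 week had 1.28, 0.492, 1.61, 1.25 and 1.97 CPM, against 2.15, 1.87, 1.15, 2.56 and 0.960 CPM in sham 1 week. The groups overlapped, and 1 injured rat lay below the sham range. The log2 fold change was -0.40 with a standard error of 0.387, and the 95% interval from 0.441-fold to 1.31-fold did not exclude a lowering by more than 2-fold (edgeR adjusted p = 0.688). Without SCI 1 week replicate 2 the Tgfb1 value was -0.18, and without sham 1 week replicate 4 it was -0.21. SCI 12 weeks had 2.20, 0.736, 1.40, 1.44 and 1.84 CPM, against 0.845, 2.02, 0.415, 1.83 and 2.12 CPM in sham 12 weeks. The ranges overlapped, with a fold change of 1.06 and an interval from 0.612 to 1.84 (edgeR adjusted p = 0.992). The mean was highest in sham 1 week, at 1.74 CPM, and lowest in SCI 6 weeks, at 1.28 CPM, and each neighbour in the order lay within the larger SD.

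Ntrk2, the gene of the BDNF receptor TrkB, was counted 2249 to 13639 times per library, so counting error was small, at 1.46% against an observed coefficient of variation of 8.15%. The gene is known to give a full-length receptor with a kinase and a truncated form without one that astrocytes carry, and a count per gene does not separate them. SCI 1 week had 328, 352, 380.3, 339 and 385 CPM, against 357, 384, 353, 344 and 304 CPM in sham 1 week. The highest injured rat stood barely above the highest sham rat, and the fold change was 1.02 with a 95% interval from 0.926 to 1.13 (edgeR adjusted p = 0.875). SCI 12 weeks had 359.6, 313, 399, 316 and 335 CPM, against 335, 344, 326, 328 and 379.9 CPM in sham 12 weeks. The injured rats reached both higher and lower than the sham rats, with a fold change of 1.01 and an interval from 0.910 to 1.11 (edgeR adjusted p = 0.995). SCI 6 weeks had the highest mean, 374 CPM ± 29.1 (SD, n = 5), against 345 CPM over the 10 sham rats. Its 5 rats had 358, 382, 416, 339 and 375 CPM, and 1 of them lay above all 10 sham rats. Its log2 fold change of 0.11 ± 0.062 (standard error) did not pass (edgeR adjusted p = 0.640). The means of the 6 groups ran from 343 CPM in sham 12 weeks to 374 CPM in SCI 6 weeks, and neighbours in this order lay within the larger SD.

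Ngfr had 64 to 411 counts per library. The rats of SCI 1 week had 10.5, 11.2, 12.7, 9.10 and 17.0 CPM, and those of SCI 3 weeks 9.85, 10.6, 11.6, 9.13 and 11.3 CPM. In SCI 6 weeks the level was 10.2, 12.9, 19.5, 16.8 and 10.8 CPM, and in SCI 12 weeks 10.5, 13.1, 12.0, 16.1 and 13.5 CPM. The sham 12 weeks rats had 14.5, 10.1, 11.0, 14.8 and 17.4 CPM, and the sham 1 week rats 9.83, 8.24, 10.2, 8.47 and 8.91 CPM. The sham 1 week rats stood together at the low end: 21 of the 25 rats of the other groups lay above the highest of them, 4 of 5 in SCI 1 week, 3 of 5 in SCI 3 weeks, all 5 in SCI 6 weeks and in SCI 12 weeks, and 4 of 5 in sham 12 weeks. The other 5 groups overlapped each other. Sham 1 week was the group with the lowest Ngfr mean, so rats above its range are in part given by that choice. The share of all tested genes with such a count was not computed. The sham 1 week libraries were also the deepest as a group, between 10608825 and 37410793 counts. With library size as a covariate the log2 fold change of sham 12 weeks over sham 1 week was 0.59, and 0.56 without it. The part of depth in the low Ngfr level was not tested further. In the order of the 6 means, SCI 6 weeks, sham 12 weeks, SCI 12 weeks, SCI 1 week, SCI 3 weeks and sham 1 week, 4 of 5 neighbours lay within the larger SD. The exception was SCI 3 weeks, at 10.5 CPM ± 1.02, beside sham 1 week, and the ranges of these groups overlapped.

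**Figure D2:**
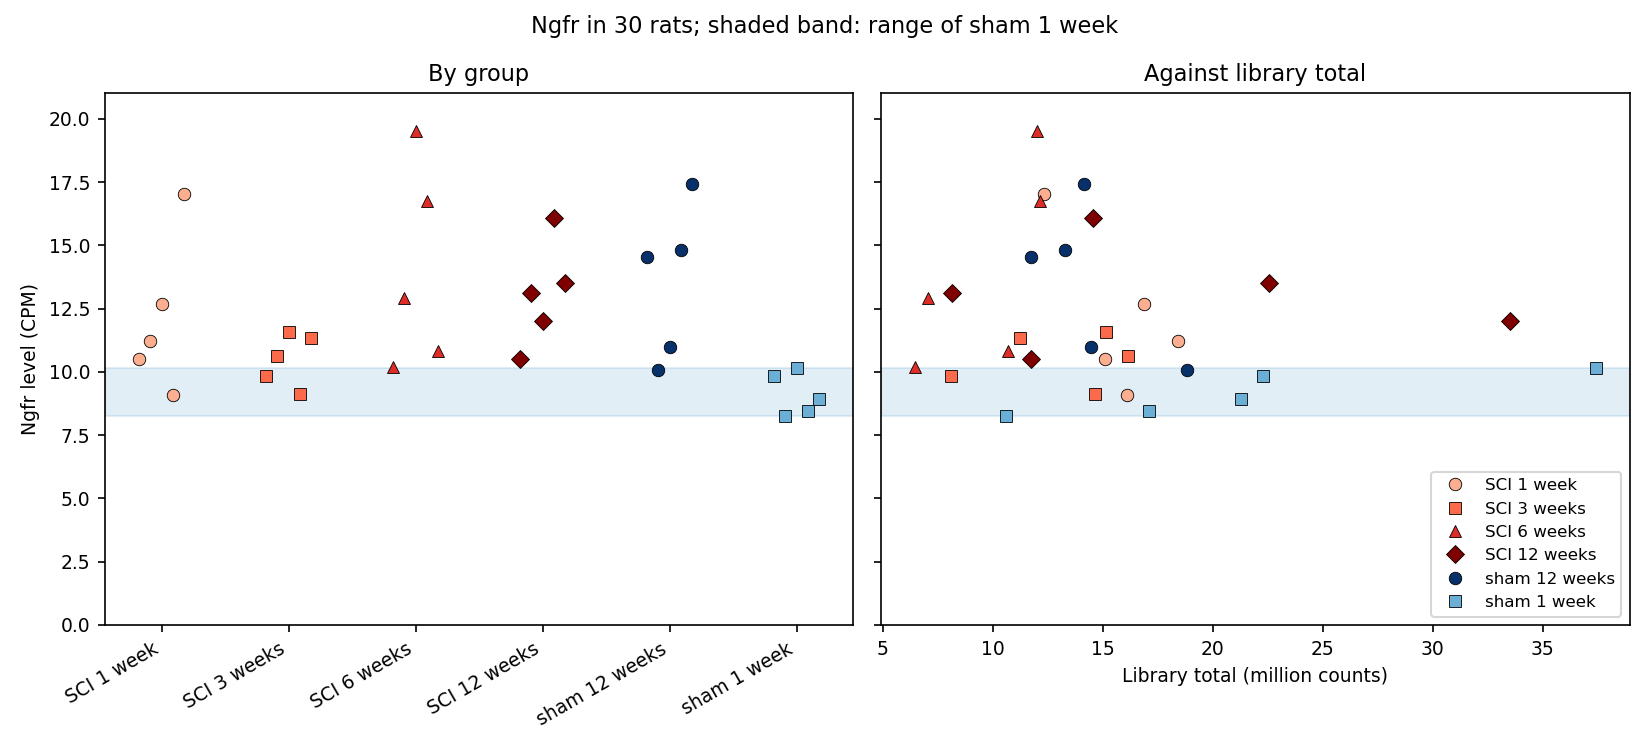
Ngfr level in CPM (y axis) in 30 rats by group (left) and against the library total (right), with the range of sham 1 week shaded. Of the 25 rats outside sham 1 week, 21 lie above the band, among them rats of sham 12 weeks. The band is that of the group with the lowest mean, and the share of all genes with such a count was not computed.

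At 1 week Ngfr was 12.1 CPM ± 3.05 in SCI 1 week, against 9.12 ± 0.840 in sham 1 week (SD, n = 5 each). On the log2 scale the difference was 0.39 ± 0.162 (standard error), an interval from 1.04-fold to 1.65-fold (edgeR adjusted p = 0.261 over 14801 genes). Without SCI 1 week replicate 5, the highest rat of the group, it was 0.24 (edgeR adjusted p = 0.569). The largest Ngfr difference of the planned comparisons was between the sham groups: sham 12 weeks averaged 13.6 CPM ± 3.00 and sham 1 week 9.12 ± 0.840, a log2 fold change of 0.56 ± 0.162 (standard error). There Ngfr ranked 58 of 14801 genes by p and did not pass (edgeR adjusted p = 0.369). Both comparisons rest on the same 5 sham 1 week rats.

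At 12 weeks, Ngfr was 13.0 CPM ± 2.06 in SCI 12 weeks and 13.6 ± 3.00 in sham 12 weeks, with overlapping ranges. This was a log2 fold change of -0.052 ± 0.161 (standard error), an interval from 0.769-fold to 1.21-fold (edgeR adjusted p = 0.985). The effect at 12 weeks minus that at 1 week was -0.44 ± 0.229 (edgeR adjusted p = 0.619), so the effects were not shown to differ. Among the 4 injured groups Ngfr did not pass the joint test (edgeR adjusted p = 0.748).

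For 3 and 6 weeks there was no sham group of the same week, so these rats were set against both sham groups, weighted equally. Ngfr then had a log2 fold change of -0.083 ± 0.144 in SCI 3 weeks (standard error, edgeR adjusted p = 0.934). In SCI 6 weeks it was 0.35 ± 0.143 (standard error, edgeR adjusted p = 0.582). These values moved with the choice of sham group. Against sham 12 weeks alone, an alternative chosen after the data were seen, the log2 fold changes were -0.36 in SCI 3 weeks and 0.073 in SCI 6 weeks (edgeR adjusted p = 0.627 and 0.917). Against sham 1 week alone they were 0.20 and 0.63 (edgeR adjusted p = 0.855 and 0.567). For all injured rats the value was 0.15 against both sham groups, -0.13 against sham 12 weeks and 0.43 against sham 1 week (edgeR adjusted p = 0.531, 0.727 and 0.309). Without SCI 6 weeks replicate 3, the highest rat of the series, the value at 6 weeks against both sham groups was 0.20 (edgeR adjusted p = 0.902).

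The counts can be read beside those over all genes. In SCI 1 week against sham 1 week 0 of 6 passed, and 0.358% of the 14801 tested genes did (edgeR adjusted p under 0.05). With the unadjusted p under 0.05 the count was 1 of 6, Ngfr, beside 13.9% of all genes. The median absolute log2 fold change was 0.18 for the 6 genes, beside 0.11 for all genes. At 3 weeks, at 12 weeks and in all injured rats it was 0.068, 0.045 and 0.055 beside 0.081, 0.087 and 0.067. At 6 weeks, between the sham groups and for the difference of injury effects it was 0.12, 0.16 and 0.28 beside 0.089, 0.093 and 0.13. In SCI 3 weeks, SCI 6 weeks, SCI 12 weeks, all injured rats and sham 12 weeks, each against its sham reference, 0 of 6 passed and 0% of all genes did. The smallest adjusted p of any gene in these was 0.462, 0.11, 0.856, 0.151 and 0.199 (edgeR). At an unadjusted p under 0.05 they gave 0, 1, 0, 0 and 1 of the 6 genes, Ngfr in both cases, beside 7.11%, 8.22%, 5.3%, 13% and 8.24% of all genes. The injury effect at 12 weeks minus that at 1 week gave 0 of 6 beside 0% of all genes, and the test among the 4 injured groups 0 of 6 beside 0.0338%. At an unadjusted p under 0.05 both gave 0 of 6, beside 8.38% and 7.14%. Ranges that did not overlap were found in 0 of 6 genes and 3.51% of all genes between SCI 1 week and sham 1 week. For SCI 3 weeks, SCI 6 weeks and all injured rats against all sham rats the count was 0 of 6, beside 0.122%, 0.196% and 0% of all genes. It was also 0 of 6 between SCI 12 weeks and sham 12 weeks, beside 0.946%, and between sham 12 weeks and sham 1 week, beside 2.17%.

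**Figure D3:**
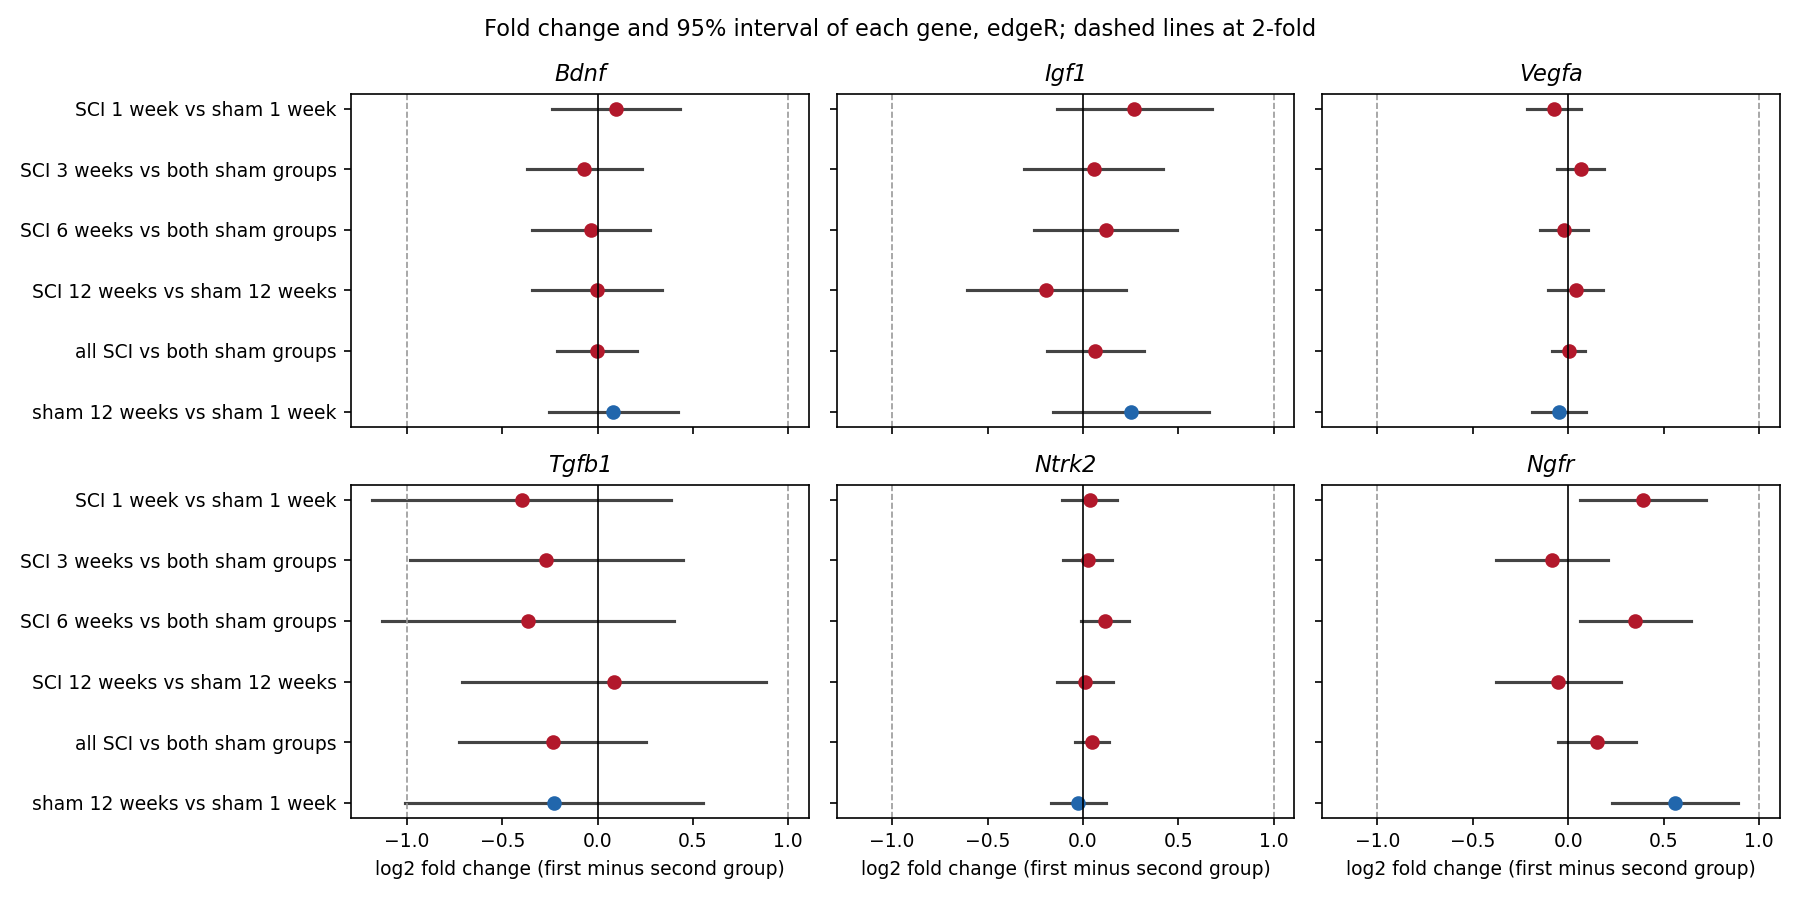
Log2 fold change (x axis, point) with its 95% interval (bar) for each gene in 6 comparisons (y axis, first group over second), from the edgeR fit, with dashed lines at a 2-fold difference. The bars of Vegfa and Ntrk2 are short and cross 0, those of Tgfb1 are the longest, and those of Ngfr lie above 0 at 1 and 6 weeks and between the sham groups. The intervals are not adjusted for the number of genes tested, and Ngfr did not pass the threshold in any of these comparisons.

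What the libraries could exclude differed by gene. For all injured rats against all sham rats, the interval excluded a 2-fold difference in all 6 genes and a 1.5-fold difference in 5, all but Tgfb1, against 97.3% and 88.2% of all genes. The fold change there was 0.998 for Bdnf (95% interval 0.863 to 1.15), 1.05 for Igf1 (0.877 to 1.25), 1.00 for Vegfa (0.943 to 1.06), 0.849 for Tgfb1 (0.605 to 1.19), 1.03 for Ntrk2 (0.970 to 1.10) and 1.11 for Ngfr (0.965 to 1.28). At 1 week the interval excluded 1.5-fold in 3 of 6 genes, Bdnf, Vegfa and Ntrk2, and 2-fold in 5, against 74.96% and 89.9% of all genes. At 12 weeks it excluded 1.5-fold in 4 of 6, Bdnf, Vegfa, Ntrk2 and Ngfr, and 2-fold in all 6, against 76.3% and 90.0% of all genes.

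The groups took a small share of the variance of most of these genes. Of the variance of log2 CPM over 30 rats, 40.6% lay between the 6 groups for Ngfr, 13.5% for Ntrk2, 13.1% for Vegfa, 9.72% for Igf1, 6.22% for Tgfb1 and 4.00% for Bdnf. The median over all tested genes was 19.2%. With so few rats per group, part of the variance lies between groups even where they do not differ, so a share alone shows no group effect. The biological coefficient of variation, the spread between rats of 1 group that edgeR estimates beyond counting, was 7.73% for Vegfa, 8.30% for Ntrk2, 16.3% for Bdnf, 16.9% for Ngfr, 18.8% for Igf1 and 37.4% for Tgfb1. Its median over all tested genes was 11.5%.

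No pair of the 6 genes passed a test of correlation between rats. Of 15 pairs, 0 passed in 30 rats (permutation test of Pearson's r with 100000 resamples, smallest Benjamini-Hochberg adjusted p = 0.421). Bdnf and Igf1 had the highest r, 0.35, with a Spearman rho of 0.19 (permutation p = 0.0579 and 0.314, adjusted p = 0.421 and 0.873). Without the 2 rats farthest from the median of Bdnf r was 0.15, a drop that was not tested. On deviations from the group means r was 0.34. The ligand Bdnf and its receptor gene Ntrk2 had an r of -0.34 and a rho of -0.36 (permutation p = 0.0634 and 0.0489, adjusted p = 0.421 and 0.270). Without the 2 farthest rats r was -0.42, and on deviations from the group means -0.36. For Tgfb1 and Ntrk2 r was 0.30 and rho 0.40 (permutation p = 0.112 and 0.029, adjusted p = 0.421 and 0.270). That r was 0.23 without the 2 rats farthest from the median of Tgfb1 and 0.38 on deviations from the group means. The receptor genes Ntrk2 and Ngfr had an r of 0.20 and a rho of 0.093 (permutation p = 0.292 and 0.622, adjusted p = 0.875 and 0.873). It was 0.10 without the 2 farthest rats and 0.19 on deviations from the group means.

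**Figure D4:**
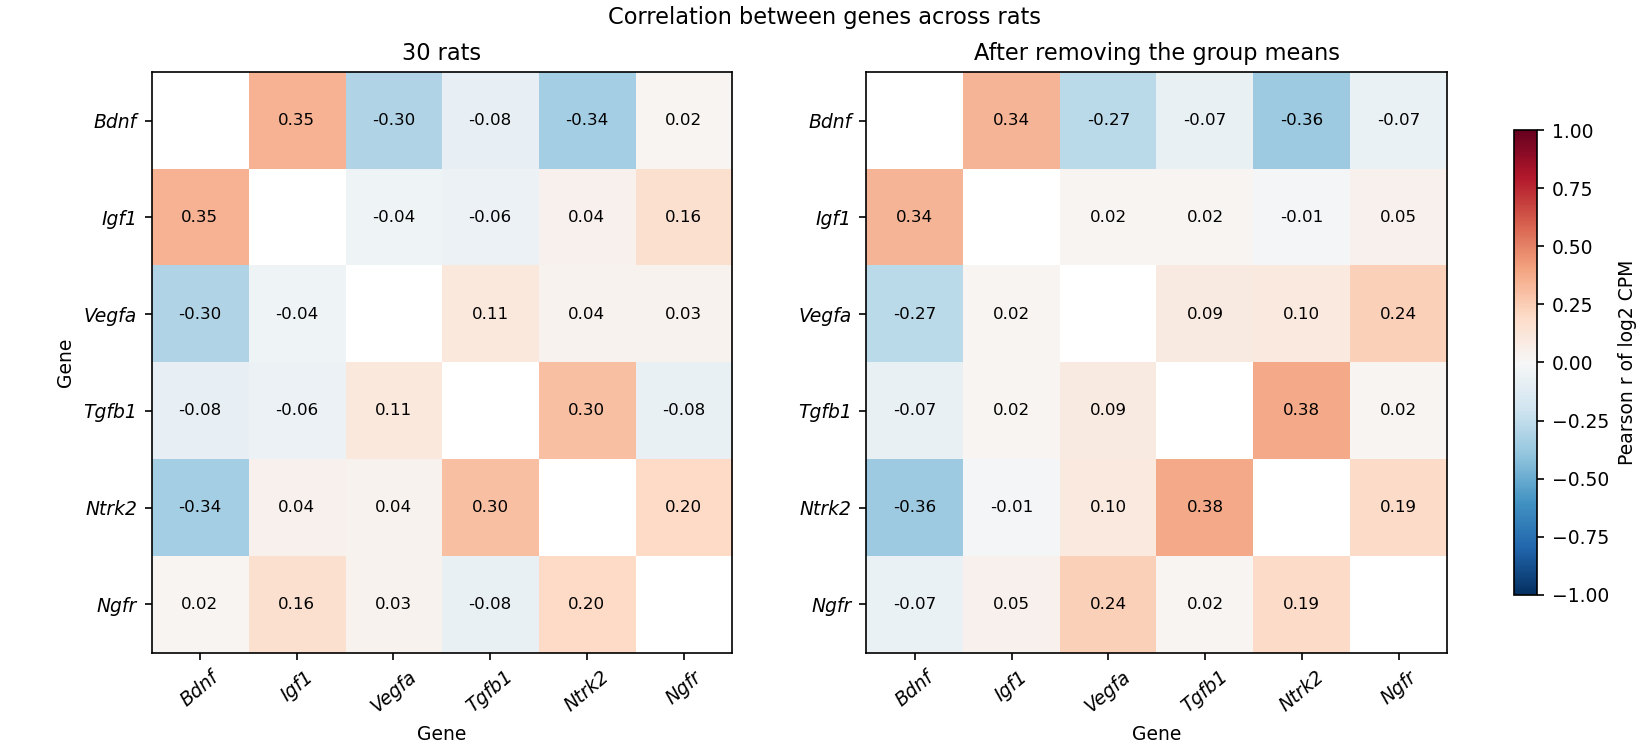
Pearson r of log2 CPM between each pair of the 6 genes over 30 rats (left) and on deviations from the group means (right), with blue for negative and red for positive values. The values lie between -0.34 and 0.35 on the left, and no pair passed its test.

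For each gene the tested gene whose log2 CPM followed it best over the 30 rats was looked up, as a description of the same libraries. It was ENSRNOG00000008709 for Ntrk2, with an r of 0.86 (0.88 on deviations from the group means, 0.82 without the 2 rats farthest from the median of Ntrk2). For Vegfa it was ENSRNOG00000008632 with an r of 0.71, and for Ngfr ENSRNOG00000010141 with an r of 0.71. The best values for Bdnf, Tgfb1 and Igf1 were lower, 0.65 with ENSRNOG00000051383, 0.63 with ENSRNOG00000006934 and 0.62 with ENSRNOG00000048101. Each is the highest over all tested genes, the points share their library and its scaling, and the identifiers could not be paired with names.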

How the data were processed

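RNA from the cervical intermediate gray matter of 30 rats was made into strand-specific libraries after removal of ribosomal RNA, per the labels' protocols. For each library the authors deposited whole-number counts, not normalized, for the same 32545 identifiers. Tools named in the submitters' processing notes are STAR 2.5.3a, Subread 1.2.6, featureCounts, Trimmomatic and bcl2fastq 2.19.05, and the build is Rnor_6.0, with no role or order named. Not given in the sources used here are the annotation release, the strand setting and how multimapping reads were treated, so reads from an overlapping antisense gene could not be told apart.

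Groups and replicate numbers came from the titles. The labels name no batch. No pair of libraries within a group was identical, and the chi-square per degree of freedom of their counts was at least 4.40 over 60 pairs. The counts were tested with edgeR 4.0.16 in R 4.3.3 (TMM, filterByExpr, robust quasi-likelihood fit of 6 groups in 1 model, Benjamini-Hochberg over 14801 genes, threshold 0.05), which was checked on simulated counts. Standard errors are the absolute log2 fold change over the root of F, and give the 95% intervals. For correlations, CPM was put on the log2 scale with a prior count of 2 (Python 3.11.15, numpy 2.4.6, scipy 1.17.1, pandas 2.3.3; figures with matplotlib 3.10.9).

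The genes and lists were chosen with earlier results of these data known. The genes named are the 6 chosen ones and, for each, the tested gene with the highest r. Pathway lists and cell type markers, 135 symbols in all, were not run, because 0 of 32545 identifiers matched the 47357 rows of the reference table (GRCr8). Alternatives were DESeq2 size factors, 2 other filters, DESeq2 1.42.0, limma-voom (limma 3.58.1), a replicate block, only the groups compared, both readings of the conflicting label, library size as a covariate and each library left out. A single sham group as the comparison for 3 weeks, 6 weeks and all injured rats was added after the data were seen. CPM, computed here, are counts per library total scaled by TMM.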

Additional observations from a re-analysis of the deposited data

Results flagged for a closer look

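For 6 genes in 6 groups, 36 sets of 5 rats were searched for a rat far from the other 4. There were 4, and chance flags about 1 in 20 sets. Bdnf in SCI 12 weeks replicate 1 was 3.73 CPM, and the nearest rat of the group had 6.62. Bdnf in SCI 3 weeks replicate 3 was 6.58 CPM, with the nearest at 5.70. Vegfa in SCI 6 weeks replicate 4 was 82.9 CPM, with the nearest at 70.4. Igf1 in sham 12 weeks replicate 1 was 5.58 CPM, with the nearest at 3.87. These were 4 different rats, and none was the library with the conflicting label.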

How the results depend on the processing

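The count of the 6 genes past the threshold was 0 in each of the 8 comparisons under every alternative that was run. The count of correlated pairs was also 0. In 3 of the comparisons DESeq2 gave some of the 6 genes no adjusted p, so these could not be counted. Ngfr between the sham groups was among them, with an unadjusted p of 0.000713 (DESeq2). With the replicate number as a block the count of the 6 genes was 0 in each comparison. Ngfr then had log2 fold changes of 0.39 at 1 week and 0.56 between the sham groups (edgeR adjusted p = 0.275 and 0.336). Same-numbered rats of different groups did not deviate together (r from -0.153 to 0.146 over 75 pairs, median 0.0065), so the numbers were not taken as pairs. The number of all genes called in SCI 1 week against sham 1 week, 53, ran from 0 (the conflicting library counted as injured) to 219 (DESeq2). With 1 rat left out it ran from 0 (without SCI 1 week replicate 3) to 128 (without SCI 3 weeks replicate 1). Among the 4 injured groups it was 5 and ran from 0 to 29. DESeq2 called 16 of all genes in all injured rats and 18 for the difference of the injury effects, where edgeR called 0. Without the conflicting library Ngfr at 1 week was 0.42, and over all alternatives its adjusted p ran from 0.201 to 0.569.

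Of 1710 refitted log2 fold changes of single genes 74 changed sign, and the others kept their direction. None of those with an adjusted p passed the threshold. The same held for 240 of 240 refitted values of the joint test among the injured groups, which has no direction. DESeq2 gave no adjusted p for Tgfb1 at 1 week or for Bdnf, Igf1, Tgfb1 and Ngfr between the sham groups. It also gave none for Bdnf, Igf1 and Tgfb1 in the difference of the injury effects. The cause of the changes of sign was not tested. With library size as a covariate Igf1 was -0.062 at 3 weeks, -0.115 at 6 weeks and -0.034 in all injured rats, where Bdnf was 0.00023 and Vegfa -0.012. Without the conflicting library, Bdnf was 0.026 at 6 weeks and 0.059 in all injured rats, and Vegfa -0.011 there. With it as injured these were 0.027, 0.074 and -0.013. By limma-voom Bdnf was 0.011 at 12 weeks and 0.031 in all injured rats. Against sham 12 weeks alone Igf1 was -0.070 at 3 weeks, -0.0059 at 6 weeks and -0.063 in all injured rats, Vegfa 0.0031 at 6 weeks and Ngfr -0.13 in all injured rats. Against sham 1 week alone Ngfr was 0.20 at 3 weeks, Bdnf 0.0077 at 6 weeks and 0.039 in all injured rats, and Vegfa -0.022 in all injured rats.

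Leaving out 1 rat at a time, the values that crossed 0 ran as follows. At 1 week Bdnf ran from -0.031 to 0.22 and Ntrk2 from -0.013 to 0.072. At 3 weeks Igf1 ran from -0.016 to 0.12 and Ntrk2 from -0.028 to 0.065. At 6 weeks Bdnf ran from -0.10 to 0.083. At 12 weeks Bdnf ran from -0.068 to 0.13, Vegfa from -0.0068 to 0.076, Tgfb1 from -0.15 to 0.26, Ntrk2 from -0.049 to 0.051 and Ngfr from -0.15 to 0.058. In all injured rats Bdnf ran from -0.066 to 0.059 and Vegfa from -0.016 to 0.023. Between the sham groups Bdnf ran from -0.042 to 0.20, Tgfb1 from -0.41 to 0.0026 and Ntrk2 from -0.068 to 0.013. The difference of the injury effects ran from -0.23 to 0.029 for Bdnf and from -0.084 to 0.020 for Ntrk2.

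On deviations from the group means the r of Bdnf and Ngfr was -0.068, of Igf1 and Vegfa 0.016, of Igf1 and Tgfb1 0.020, of Igf1 and Ntrk2 -0.0096 and of Tgfb1 and Ngfr 0.020. Without the 2 farthest rats it was 0.0025 for Bdnf and Tgfb1, -0.11 for Bdnf and Ngfr, -0.014 for Vegfa and Tgfb1 and -0.060 for Vegfa and Ntrk2. Counting error was largest for Tgfb1, with 5 counts in its lowest library.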
